A study of Homo sapiens with 12 samples.

Results

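Osmotic stress genes let a cell keep its volume when the salt or solute content of its surroundings changes. A set of 10 is described here in A549 cells, a human lung adenocarcinoma line of alveolar epithelial origin: the osmolyte-producing enzyme gene AKR1B1, the tonicity regulator gene NFAT5, the osmolyte transporter genes SLC5A3 and SLC6A6, the aquaporin genes AQP1 and AQP3, the kinase genes SGK1 and WNK1, the cotransporter gene SLC12A2 and the volume-regulated channel gene LRRC8A. They were chosen by symbol from known function, but with earlier results of these data known. All 10 were found among the 25433 genes in either deposited count table, 23771 of which stood in both. The 12 RNA libraries form 3 groups of 4, all cultured for 2 days: cells given 10 ng/mL TGF-β1 together with 40 mM sodium acetate, cells given 10 ng/mL TGF-β1 alone, and control cells given neither. TGF-β1 is a cytokine that drives epithelial cells toward a mesenchymal state. Acetate was added as its sodium salt with no matched sodium control and no group with acetate alone, so acetate, the sodium that came with it and the added solute cannot be told apart. Whether the 4 libraries of 1 group came from separate cultures is not stated, and the p-values then cover only the spread among these libraries, part or all of which may be technical. Count columns carry library codes (S22 to S25 for TGF-β1 plus acetate, S15 to S18 for TGF-β1, S1 to S4 for control) that were placed in groups by the names of the tables holding them and not by a sample label. A wrong table name would therefore change every comparison.

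In hypertonic medium a cell loses water and shrinks. It first takes up ions, among other routes through the sodium-potassium-chloride cotransporter NKCC1 (SLC12A2), which WNK kinases switch on by way of the kinases SPAK and OSR1, and it later replaces those ions with small uncharged or zwitterionic solutes called compatible osmolytes. The slower phase depends on NFAT5, also called TonEBP, a transcription factor that binds tonicity elements and raises the genes for sorbitol synthesis (AKR1B1), myo-inositol uptake (SLC5A3) and taurine uptake (SLC6A6). In hypotonic medium the reverse takes place, and swollen cells release chloride and osmolytes through volume-regulated anion channels that contain LRRC8A. Aquaporins carry the water itself, and SGK1 is a kinase that responds to serum, glucocorticoids and cell shrinkage and raises sodium transport.

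Library totals ran from 34698057 to 41575904 counts with TGF-β1 plus acetate, from 37202599 to 53936023 with TGF-β1 and from 38400896 to 53055990 in control, so that 3 counts correspond to 0.0556 to 0.0865 CPM (counts scaled to a common library total). All levels below are CPM on TMM-adjusted totals, and all tests are two-sided edgeR quasi-likelihood tests called at a Benjamini-Hochberg adjusted p below 0.05 over all genes tested. The summed level of 6 epithelial markers was 6675 to 7669 CPM with TGF-β1 plus acetate, 5581 to 6166 CPM with TGF-β1 and 6038 to 6281 CPM in control. KRT7, KRT8 and KRT18 made up nearly all of that sum, and the other 3 were low with TGF-β1 alone. CDH1, the adherens junction protein E-cadherin, averaged 45.5 ± 2.56 CPM with TGF-β1 plus acetate, 1.46 ± 0.394 CPM with TGF-β1 and 58.7 ± 2.80 CPM in control, KRT19 averaged 58.4 ± 8.99, 7.01 ± 0.649 and 36.6 ± 3.19 CPM, and EPCAM 5.63 ± 0.338, 1.08 ± 0.224 and 4.22 ± 0.327 CPM in the same groups. These 3 markers were thus low in the same group as AKR1B1, NFAT5 and SLC6A6, but the 3 abundant keratins did not share that pattern as a set. In the same order of groups KRT7 averaged 2683, 2268 and 1809 CPM and was lowest in control. KRT8 averaged 2525, 2237 and 2250 CPM, nearly level between TGF-β1 and control. KRT18 averaged 1840, 1456 and 1954.5 CPM and was lowest with TGF-β1 alone. Of 6 alveolar markers only NAPSA and SFTPB stood in both tables, together at 2.55 CPM or less in every library. The 4 fibroblast and mural markers, mostly LUM, summed to 18.1 to 20.8 CPM with TGF-β1 plus acetate, 7.05 to 8.60 CPM with TGF-β1 and 0.771 to 1.14 CPM in control, and 3 leukocyte markers of 5 listed to 24.2 to 25.5, 13.7 to 16.9 and 12.1 to 14.9 CPM in the same groups. None of 4 endothelial markers stood in both tables. The part of these marker levels in the results was not tested. In bulk RNA, fewer cells expressing a gene and less of its RNA per cell cannot be told apart.

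TGF-β1 and acetate moved most of the 10 genes, and in most cases in opposite directions. Under TGF-β1 against control, 4 genes rose (AQP1, SGK1, SLC5A3 and LRRC8A) and 6 fell (AQP3, SLC12A2, AKR1B1, SLC6A6, NFAT5 and WNK1), where 34.1% of all 22051 genes tested rose, 32.8% fell and 66.9% were called either way. Under TGF-β1 plus acetate against TGF-β1, 8 rose, SGK1 alone fell and SLC5A3 was not called, where 33.3% of all 22336 genes tested rose, 30.4% fell and 63.7% were called. Against control, the cells with TGF-β1 plus acetate held 5 genes at a higher level (AQP1, SGK1, AKR1B1, LRRC8A and SLC5A3), 4 at a lower one (AQP3, SLC12A2, WNK1 and SLC6A6) and NFAT5 without a call, where 36.1% of all 22742 genes tested were higher, 34.4% lower and 70.6% called. With so many genes called, a call as such says little, and the sizes below carry the description. The median log2 fold change of the 10 genes was 0.52 for acetate and −0.71 for TGF-β1, beside medians of 0.03 and 0.02 over all genes. Both comparisons share the TGF-β1 libraries, so a low value there lowers one change and raises the other, and the opposite signs are not separate findings.

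Changes of at least 2-fold were fewer. With acetate AKR1B1 and AQP1 rose at least 2-fold, as did 10.8% of all genes, and none of the 10 fell that far, as did 2.07% of all genes. TGF-β1 raised AQP1 and SGK1 at least 2-fold (8.92% of all genes) and lowered AKR1B1, AQP3 and SLC12A2 by as much (8.68%). Between TGF-β1 plus acetate and control, AQP1 and SGK1 were at least 2-fold higher (14.3%) and AQP3 and SLC12A2 at least 2-fold lower (5.47%). The libraries of the compared groups did not overlap for 8 of the 10 genes under acetate (57.4% of all genes), for 9 under TGF-β1 (61.4%) and for 9 between TGF-β1 plus acetate and control (64%).

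**Figure D1:**
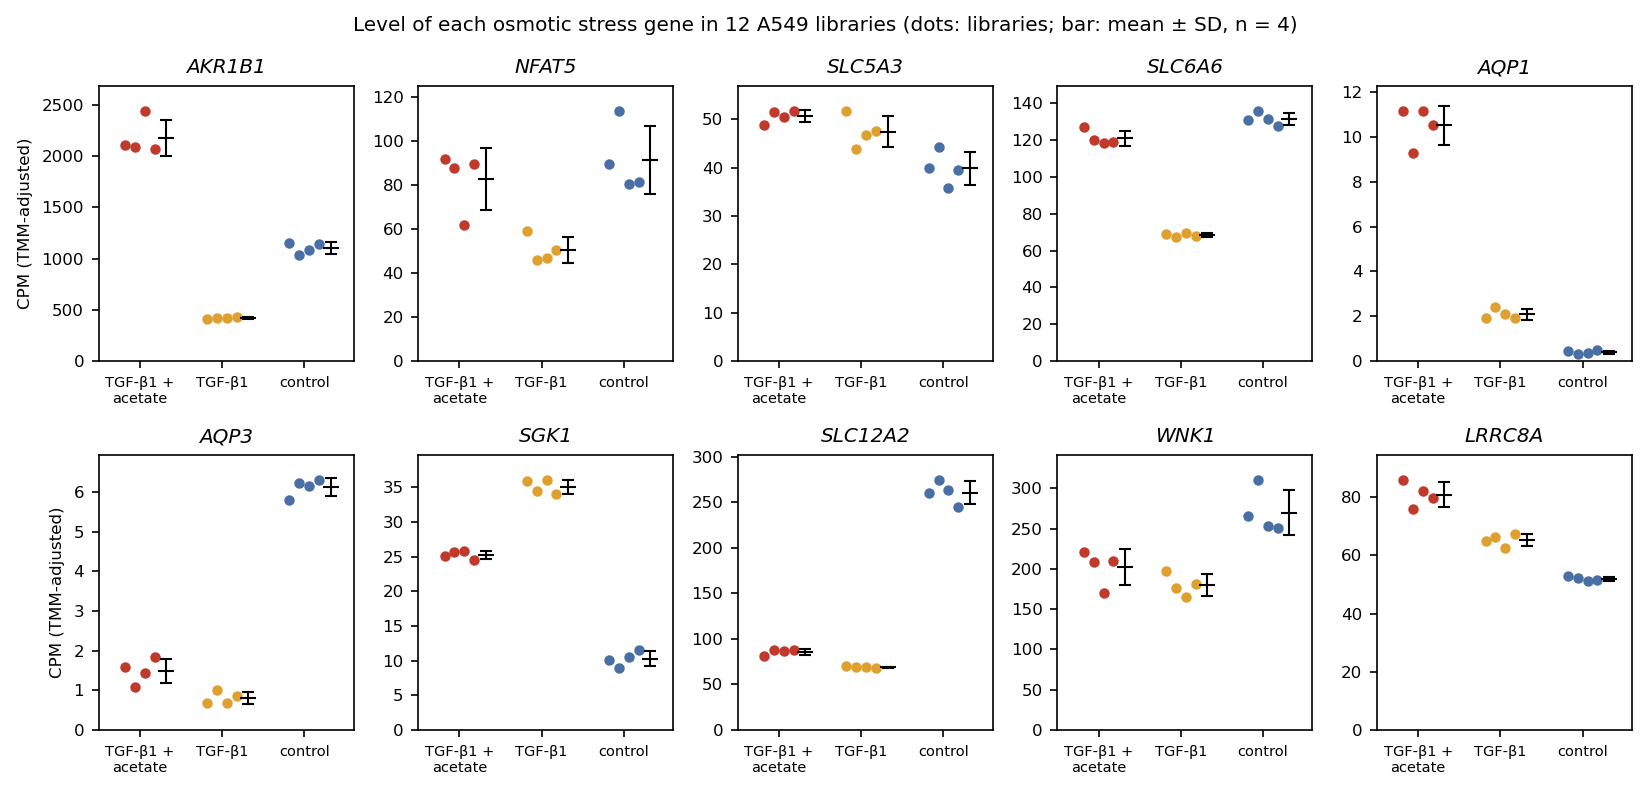
Level of each of the 10 genes in CPM (vertical axes, each starting at 0) in the 12 libraries, with dots for libraries and a bar for the mean ± SD of 4. AKR1B1 lies between 2073 and 2439 CPM in the libraries with TGF-β1 plus acetate and between 413 and 432 CPM in those with TGF-β1, AQP1 is highest with TGF-β1 plus acetate and lowest in control, and AQP3 and SLC12A2 stay low in both groups given TGF-β1.

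AKR1B1 encodes aldose reductase, which turns glucose into the osmolyte sorbitol and also reduces aldehydes. It is annotated on hg38 chromosome 7 at 134442350 to 134459284 on the minus strand. Its level was 2105, 2093, 2439 and 2073 CPM in the libraries with TGF-β1 plus acetate, 413, 423, 421 and 432 CPM with TGF-β1, and 1156, 1035, 1084 and 1143 CPM in control. The groups were far apart and none overlapped: the lowest acetate library held more than any control library, and every control library more than any TGF-β1 library. Means were 2177 ± 175 CPM with TGF-β1 plus acetate and 422 ± 7.80 CPM with TGF-β1 (SD, n = 4 each), a log2 fold change of 2.38 (SE 0.0477, 5.20-fold, adjusted p = 6.74e-15). TGF-β1 alone lowered the gene by a log2 fold change of −1.38 (SE 0.0381, adjusted p = 8.66e-15) against the control mean of 1104 ± 55.7 CPM. With both, the level stood above control at a log2 fold change of 0.98 (SE 0.0475, 1.97-fold, adjusted p = 6.27e-13). None of the 1856 75-base windows of its longest annotated transcript occurs in transcripts of another gene. Its paralogues were also lowest with TGF-β1 alone, but with TGF-β1 plus acetate they stayed below control, where AKR1B1 stood above it. AKR1B10, which reduces retinal and other aldehydes, averaged 634 ± 56.5 CPM with TGF-β1 plus acetate, 269 ± 10.4 CPM with TGF-β1 and 3484 ± 79.3 CPM in control. AKR1B15 averaged 18.3 ± 2.96, 9.32 ± 0.369 and 124 ± 19.8 CPM in the same groups. These copies resemble each other, and how reads between them were divided is not given in the sources used here.

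AKR1B1 and AQP1 had the largest rises under acetate, and bases before their outermost annotated exons are shown for that reason, from the RefSeq promoter table (GRCh38.p14), 5′ to 3′ on the strand of the gene. The first is chr7:134459285-134459489 on the minus strand, next to the gene as the files place it. The second is chr7:30911603-30911693 on the plus strand, which stops short of the files' AQP1 start at 30911855 because GENCODE release 29 places an exon between. All bases are in lower case, as neither stretch shown holds a motif searched for below. The RefSeq window of AQP1 goes on to hold 2 matches of the SMAD box CAGAC past the bases shown.
AKR1B1: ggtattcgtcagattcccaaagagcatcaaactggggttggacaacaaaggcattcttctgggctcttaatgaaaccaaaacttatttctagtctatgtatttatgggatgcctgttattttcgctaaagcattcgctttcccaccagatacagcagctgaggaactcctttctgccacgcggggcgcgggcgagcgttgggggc
AQP1: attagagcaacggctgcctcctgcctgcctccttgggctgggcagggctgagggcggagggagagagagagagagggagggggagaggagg
All of the genes but NFAT5 and SLC6A6, 8 of 10, matched 12 RefSeq windows of 300 bases (250 before and 50 after a start), which were searched on both strands. The NFAT5 tonicity element (TonE) was in none of the 12, against 4.92% of all 35116 windows. Its core, TGGAAA, which overlaps every TonE match, was in 1 window, that of WNK1, against 20.7% of all windows. The SMAD box CAGAC, a short motif bound by TGF-β-activated SMAD proteins, was in 4 windows, 1 each of AKR1B1, AQP1, SLC5A3 and WNK1, against 45.3% of all windows. A match describes letters in a window and not a bound site, and elements farther from the start were not searched.

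NFAT5 encodes the transcription factor at the centre of the hypertonic response (hg38 chromosome 16, 69565094 to 69704666, plus strand). Its level was 91.6, 87.8, 61.7 and 89.3 CPM with TGF-β1 plus acetate, 58.9, 46.1, 46.7 and 50.5 CPM with TGF-β1, and 89.4, 114, 80.3 and 81.5 CPM in control. All libraries with acetate lay above all with TGF-β1 alone, although the acetate library S24 came within a few CPM of the highest of them, and the acetate and control groups overlapped. The means were 82.6 ± 14.05, 50.5 ± 5.90 and 91.2 ± 15.5 CPM (SD, n = 4 each). NFAT5 rose with acetate by a log2 fold change of 0.72 (SE 0.105, adjusted p = 2.03e-05), which was 0.83 without S24. TGF-β1 alone lowered it by −0.85 (SE 0.0964, adjusted p = 7.88e-07). Between TGF-β1 plus acetate and control the log2 fold change was −0.14 (95% interval −0.38 to 0.096, adjusted p = 0.272), and −0.03 without S24. Of the windows of its longest transcript, 10.7% are shared with RP11-311C24.1, a gene inside it on the same strand, which averaged 7.54 ± 1.27, 4.20 ± 0.384 and 8.60 ± 1.56 CPM in the same order of groups.

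**Figure D2:**
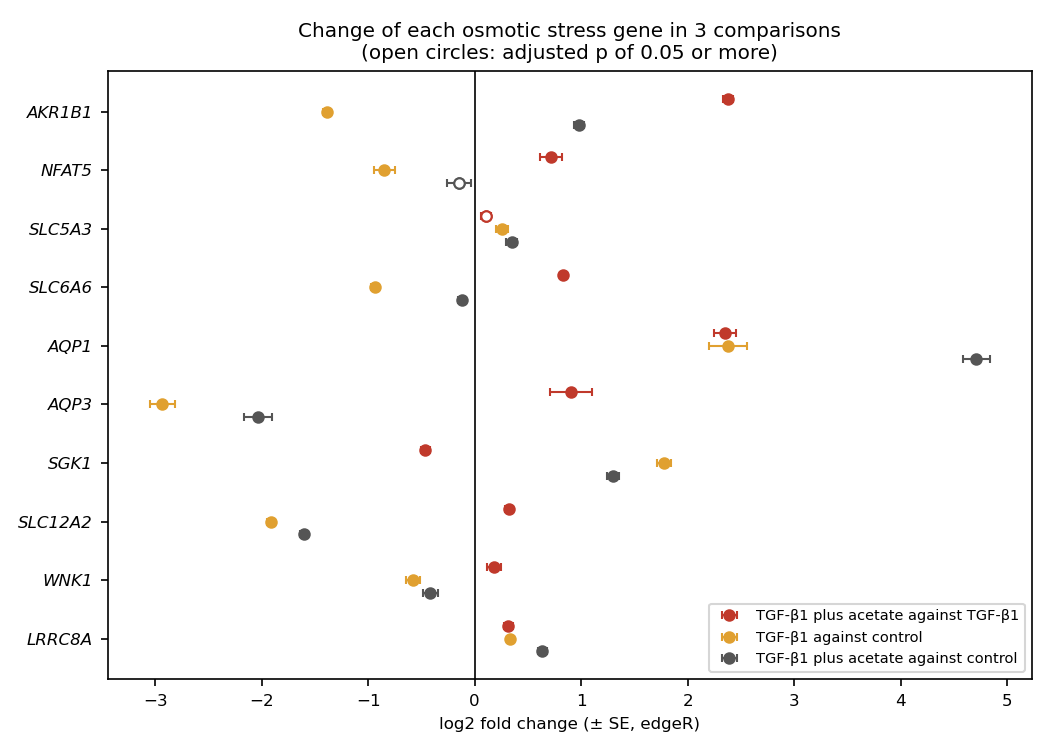
Log2 fold change with its standard error (horizontal axis) of each gene in 3 comparisons: TGF-β1 plus acetate against TGF-β1, TGF-β1 against control, and TGF-β1 plus acetate against control, with open circles for changes not called. AQP1 lies to the right of 0 in all 3, AKR1B1, NFAT5, SLC6A6, AQP3, SLC12A2 and WNK1 change side between the acetate and the TGF-β1 comparison, and SGK1 does so the other way round.

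SLC6A6 encodes the taurine transporter TauT (hg38 chromosome 3, 14402576 to 14489349, plus strand), which loads cells with the osmolyte taurine. It stood at 127, 120, 118 and 119 CPM with TGF-β1 plus acetate, 69.1, 67.3, 69.3 and 67.8 CPM with TGF-β1, and 131, 136, 131 and 128 CPM in control. The TGF-β1 libraries were the low ones, and the other groups lay side by side without overlap. Acetate raised it by a log2 fold change of 0.83 (SE 0.0354, adjusted p = 1.92e-11) to a mean of 121 ± 4.00 CPM, against 68.4 ± 0.991 CPM with TGF-β1. TGF-β1 lowered it by −0.94 (SE 0.0337, adjusted p = 2.71e-13) relative to the control mean of 131 ± 3.35 CPM. The small remaining difference between TGF-β1 plus acetate and control, −0.12 (SE 0.0336, adjusted p = 0.00401), was no longer called when libraries were scaled by their totals (−0.07, adjusted p = 0.0734). GRIP2 overlaps its end on the other strand over 2.53% of transcript windows and averaged 7.27 ± 0.675, 3.05 ± 0.373 and 4.38 ± 0.744 CPM in the same order of groups.

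SLC5A3 encodes SMIT1, which imports the osmolyte myo-inositol with sodium (hg38 chromosome 21, 34073570 to 34106262, plus strand). Under acetate and under TGF-β1 it had the smallest change of the 10. It was at 48.9, 51.5, 50.6 and 51.7 CPM with TGF-β1 plus acetate, 51.7, 43.9, 46.8 and 47.5 CPM with TGF-β1, and 39.8, 44.3, 35.7 and 39.6 CPM in control. The groups with and without acetate overlapped, the TGF-β1 and control groups overlapped at 1 library each, and all libraries with both agents lay above control. The acetate change was a log2 fold change of 0.10 (95% interval 0.0035 to 0.20, adjusted p = 0.0660). It passed the threshold without S15 (0.12, adjusted p = 0.0191) and with scaling by library totals (0.24, adjusted p = 9.22e-04). TGF-β1 raised SLC5A3 by 0.26 (SE 0.0597, adjusted p = 0.00117), and TGF-β1 plus acetate held it above control by 0.35 (SE 0.0557, adjusted p = 1.71e-05), with means of 50.7 ± 1.27, 47.5 ± 3.19 and 39.8 ± 3.50 CPM in the 3 groups. MRPS6, which overlaps SLC5A3 on the same strand and shares 0.948% of its transcript windows, averaged 19.4 ± 1.43, 22.4 ± 1.90 and 19.1 ± 0.515 CPM.

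Other genes of osmolyte supply and NFAT5 target genes, a list of 17, shifted with the same signs as most of the members. The list mixes genes that make or take up osmolytes with genes that break them down, so shared signs do not give a direction of osmolyte supply. With acetate 11 of 15 tested genes rose while 3 fell, where 33.3% of all genes rose and 30.4% fell, and their median log2 fold change was 0.40. With TGF-β1 against control 3 of 16 rose while 11 fell, where 34.1% of all genes rose and 32.8% fell, and the median was −0.35. The same shares of all genes apply to the counts of the other lists below. S100A4, a calcium-binding protein, rose by 1.75 (SE 0.0349, adjusted p = 6.74e-15), averaging 417 ± 5.89 CPM with TGF-β1 plus acetate, 125 ± 4.78 CPM with TGF-β1 and 177 ± 14.9 CPM in control. SLC6A12, the betaine and GABA transporter BGT1, rose by 3.58 (SE 0.196, adjusted p = 3.21e-10) at a low level, with 3.28 ± 0.539 CPM with TGF-β1 plus acetate, 0.273 ± 0.0497 CPM with TGF-β1 and 0.313 ± 0.0846 CPM in control. Under TGF-β1, GPCPD1, which breaks down the osmolyte glycerophosphocholine, fell by a log2 fold change of −2.48 (SE 0.0536, adjusted p = 4.25e-16). It averaged 25.4 ± 2.18 CPM with TGF-β1 plus acetate, 15.3 ± 0.616 CPM with TGF-β1 and 85.4 ± 6.10 CPM in control. ISYNA1, which makes inositol phosphate from glucose phosphate, fell under TGF-β1 by −1.33 (SE 0.0628, adjusted p = 1.09e-11), with 28.4 ± 3.17, 12.5 ± 1.17 and 31.5 ± 1.78 CPM in the same order. SLC6A13, counted among the rises under TGF-β1, averaged 1.11 ± 0.168 CPM there and 0.111 ± 0.0375 CPM in control. It passed the filter on low counts only through the TGF-β1 libraries, which fixed its direction. SLC5A11, counted among the falls (−3.69), did not stand in both tables and was not tested under acetate. Between TGF-β1 plus acetate and control, 5 of 15 were higher and 4 lower, neither above the share of all genes (36.1% higher and 34.4% lower).

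AQP1 encodes a water channel (hg38 chromosome 7, 30911855 to 30925516, plus strand) that passes water and little else. It was the only one of the 10 that rose in at least 2-fold steps in both the TGF-β1 and the acetate comparison. Its level was 11.1, 9.28, 11.2 and 10.5 CPM with TGF-β1 plus acetate, 1.91, 2.43, 2.09 and 1.90 CPM with TGF-β1, and 0.430, 0.327, 0.358 and 0.470 CPM in control. No groups overlapped, and the control values rest on 14 to 25 counts a library, against 78 to 106 with TGF-β1 and 357 to 472 with TGF-β1 plus acetate. Acetate raised it by a log2 fold change of 2.35 (SE 0.0994, 5.10-fold, adjusted p = 1.82e-11), and TGF-β1 by 2.38 (SE 0.178, 5.20-fold, adjusted p = 4.37e-09). TGF-β1 plus acetate against control gave 4.71 (SE 0.128, 26.2-fold, adjusted p = 1.06e-16), with means of 10.5 ± 0.880 CPM and 0.396 ± 0.0657 CPM. On the same strand RP5-877J2.1 overlaps it and shares 29.4% of the windows of its longest transcript. That gene averaged 4.20 ± 0.476 CPM with TGF-β1 plus acetate, 2.01 ± 0.0660 CPM with TGF-β1 and 1.42 ± 0.137 CPM in control, so the division of reads between both is uncertain.

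AQP3 encodes an aquaglyceroporin, which passes water and glycerol and lies in the basal membrane of airway epithelium (hg38 chromosome 9, 33441154 to 33447611, minus strand). Its values were 1.58, 1.09, 1.44 and 1.83 CPM with TGF-β1 plus acetate, 0.686, 0.999, 0.691 and 0.852 CPM with TGF-β1, and 5.79, 6.23, 6.16 and 6.30 CPM in control. Control was high in every library, and both groups given TGF-β1 were low and did not overlap each other. TGF-β1 lowered it by a log2 fold change of −2.93 (SE 0.119, adjusted p = 1.40e-12), with means of 0.807 ± 0.149 CPM and 6.12 ± 0.224 CPM in control. Acetate raised it by 0.91 (SE 0.198, adjusted p = 8.86e-04) to 1.49 ± 0.309 CPM, on 42 to 80 counts a library against 28 to 35 with TGF-β1. TGF-β1 plus acetate stayed below control by −2.03 (SE 0.128, adjusted p = 3.38e-11). AQP1 and AQP3 thus exchanged their order, already with TGF-β1 alone. Per kilobase of longest transcript, AQP1 had 3.61 ± 0.302 CPM and AQP3 0.511 ± 0.106 CPM with TGF-β1 plus acetate. With TGF-β1 AQP1 had 0.715 ± 0.0841 and AQP3 0.277 ± 0.0513 CPM per kilobase, whereas in control AQP1 had 0.136 ± 0.0226 and AQP3 2.10 ± 0.0771 CPM per kilobase.

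Of 11 other aquaporin genes only 3 could be tested in the first 2 comparisons, all at low levels. With acetate MIP, the lens aquaporin, was called lower at −0.34 (SE 0.136, adjusted p = 0.0390), with means of 1.92 ± 0.282 CPM against 2.44 ± 0.265 CPM with TGF-β1. That call was lost with library totals and without S17, S18, S23, S24 or S25 (adjusted p = 0.0566 to 0.184). AQP11, an intracellular aquaporin, was called higher under TGF-β1 at 0.40 (SE 0.156, adjusted p = 0.0348), with 2.76 ± 0.262 CPM against 2.11 ± 0.497 CPM in control, and was not called with library totals or without S2, S3, S4, S15 or S16 (adjusted p = 0.0547 to 0.163). AQP6 was at 0.270 ± 0.102, 0.302 ± 0.0836 and 0.385 ± 0.163 CPM in the 3 groups and passed in neither comparison (adjusted p = 0.735 for acetate and 0.342 for TGF-β1). AQP7, an aquaglyceroporin singled out after its values were seen, fell below the filter on low counts in both. It had 15, 21, 18 and 10 counts in the libraries with TGF-β1 plus acetate, 2, 0, 0 and 0 with TGF-β1, and 19, 18, 10 and 10 in control, so the TGF-β1 libraries were the low ones. Some alternatives let AQP7 in, and those with a filter did so only through groups where it was high, which fixed the direction. It was then called higher with acetate in 10 of 10 and lower with TGF-β1 in 7 of 7. These fits share most of their libraries, so the calls are not separate support. They take the aquaporins called higher with acetate to 1 in place of 0, and those called lower with TGF-β1 likewise. AQP7 has near-identical copies, so its reads are uncertain.

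SGK1 encodes a serum- and glucocorticoid-induced kinase (hg38 chromosome 6, 134169246 to 134318112, minus strand). It was the one gene of the 10 that fell with acetate: 25.1, 25.7, 25.9 and 24.5 CPM with TGF-β1 plus acetate, 35.9, 34.4, 36.1 and 34.0 CPM with TGF-β1, and 10.1, 8.92, 10.5 and 11.5 CPM in control. Each group kept to its own narrow range, with TGF-β1 highest and control lowest. TGF-β1 raised SGK1 by a log2 fold change of 1.78 (SE 0.0621, 3.43-fold, adjusted p = 1.87e-13), with means of 35.1 ± 1.02 CPM and 10.3 ± 1.07 CPM in control. Acetate lowered it by −0.46 (SE 0.0428, adjusted p = 1.28e-07) to 25.3 ± 0.597 CPM, which was still above control by 1.30 (SE 0.0597, adjusted p = 2.72e-13).

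Among 19 other genes of SGK kinases and sodium handling, 17 were tested. With acetate 10 rose while 4 fell (median log2 fold change 0.52), and with TGF-β1 against control 5 rose and 9 fell, with a median of −0.16. ATP1B1, the β1 subunit of the sodium pump, rose with acetate by 0.97 (SE 0.0408, adjusted p = 1.75e-11) and averaged 308 ± 15.8 CPM with TGF-β1 plus acetate, 158 ± 5.43 CPM with TGF-β1 and 292 ± 4.29 CPM in control. NEDD4L, a ubiquitin ligase that removes the epithelial sodium channel and is restrained by SGK1, rose with acetate by 1.00 (SE 0.0435, adjusted p = 2.34e-11) and fell with TGF-β1 by −1.69 (SE 0.0401, adjusted p = 1.29e-15). Its means were 40.3 ± 1.56 CPM with TGF-β1 plus acetate, 20.2 ± 0.273 CPM with TGF-β1 and 65.7 ± 2.55 CPM in control. NR3C1, the glucocorticoid receptor, fell with TGF-β1 by −1.60 (SE 0.0354, adjusted p = 5.31e-16) and averaged 130.0 ± 4.62, 129 ± 4.18 and 393 ± 7.69 CPM in the 3 groups.

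SLC12A2 encodes NKCC1, which carries sodium, potassium and chloride into the cell (hg38 chromosome 5, 128083766 to 128189688, plus strand). Its level was 81.2, 87.4, 86.4 and 87.6 CPM with TGF-β1 plus acetate, 69.8, 68.7, 68.7 and 68.5 CPM with TGF-β1, and 260.2, 274, 263 and 244 CPM in control. The groups did not overlap, and every control library was far above those of both groups given TGF-β1. TGF-β1 lowered SLC12A2 by a log2 fold change of −1.91 (SE 0.0391, adjusted p = 1.99e-16), with means of 68.9 ± 0.590 CPM and 260.4 ± 12.3 CPM in control. Acetate raised it by 0.32 (SE 0.0357, adjusted p = 9.80e-07) to 85.6 ± 3.04 CPM, and TGF-β1 plus acetate stayed below control by −1.60 (SE 0.0386, adjusted p = 1.77e-17).

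WNK1 encodes a chloride-sensing kinase upstream of NKCC1 (hg38 chromosome 12, 752593 to 911452, plus strand). It had 221, 208, 170.4 and 210.2 CPM with TGF-β1 plus acetate, 197, 176, 165 and 181 CPM with TGF-β1, and 266, 310.3, 253 and 251 CPM in control. The groups with and without acetate overlapped, and control was above both. WNK1 passed the threshold for acetate at a log2 fold change of 0.18 (SE 0.0691, adjusted p = 0.0325), with means of 202 ± 22.2 CPM and 179.9 ± 13.2 CPM with TGF-β1, but the call did not stand firm. It was lost with DESeq2 size factors (adjusted p = 0.0507), with all 12 libraries in the fit (0.0554) and without S16, S17, S18, S22, S23 or S25 (0.0781 to 0.181), and without S24 the log2 fold change was 0.25 (adjusted p = 3.39e-04). TGF-β1 lowered WNK1 by −0.58 (SE 0.0639, adjusted p = 5.34e-07), and TGF-β1 plus acetate was below the control mean of 269.8 ± 27.8 CPM by −0.41 (SE 0.0749, adjusted p = 6.40e-05).

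The list of 17 other cation-chloride cotransporters and WNK-SPAK regulators had 15 tested genes. With acetate 8 rose while 4 fell (median log2 fold change 0.23), and with library totals as the scaling 1 fell in place of 4. With TGF-β1 against control 4 rose and 8 fell, with a median of −0.10. SLC12A7, the potassium-chloride cotransporter KCC4, rose with acetate by 0.80 (SE 0.0631, adjusted p = 2.06e-08), with 36.2 ± 3.60 CPM against 20.9 ± 0.756 CPM with TGF-β1 and 23.9 ± 1.39 CPM in control. WNK2, a relative of WNK1, rose by 1.22 (SE 0.125, adjusted p = 4.11e-07), with 8.01 ± 1.35 CPM against 3.47 ± 0.432 CPM with TGF-β1 and 7.07 ± 0.546 CPM in control. Under TGF-β1, SLC12A4, the cotransporter KCC1, rose by 0.62 (SE 0.0443, adjusted p = 2.13e-09), and KLHL2, an adaptor in WNK kinase degradation, fell by −0.59 (SE 0.0546, adjusted p = 6.33e-08). SLC12A4 averaged 40.4 ± 0.652, 48.8 ± 2.12 and 31.8 ± 1.52 CPM and KLHL2 15.3 ± 0.390, 11.96 ± 0.315 and 18.1 ± 0.979 CPM with TGF-β1 plus acetate, with TGF-β1 and in control.

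LRRC8A encodes the subunit that every volume-regulated anion channel needs (hg38 chromosome 9, 128882112 to 128918039, plus strand). Its level was 85.8, 75.7, 81.9 and 79.5 CPM with TGF-β1 plus acetate, 64.8, 66.4, 62.5 and 67.3 CPM with TGF-β1, and 52.8, 52.2, 51.3 and 51.4 CPM in control. The groups formed 3 steps without overlap. Acetate raised it by a log2 fold change of 0.32 (SE 0.0420, adjusted p = 7.23e-06) and TGF-β1 by 0.33 (SE 0.0353, adjusted p = 3.21e-07), and TGF-β1 plus acetate exceeded control by 0.64 (SE 0.0394, adjusted p = 2.49e-11). Group means were 80.7 ± 4.25 CPM with TGF-β1 plus acetate, 65.3 ± 2.12 CPM with TGF-β1 and 51.9 ± 0.710 CPM in control. KYAT1 overlaps the gene on the other strand with no exon base in common and averaged 14.6 ± 0.777, 7.73 ± 0.890 and 10.6 ± 0.858 CPM.

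The other LRRC8 genes, whose products join LRRC8A in the channel and set which solutes pass, changed in different directions under TGF-β1. LRRC8D, the subunit linked to passage of uncharged osmolytes such as taurine, fell by a log2 fold change of −1.87 (SE 0.0341, adjusted p = 5.19e-17), and LRRC8C rose by 1.61 (SE 0.0403, adjusted p = 2.54e-15). Per kilobase of longest transcript, LRRC8D had 7.77 ± 0.332 CPM with TGF-β1 plus acetate, 7.17 ± 0.0549 CPM with TGF-β1 and 26.3 ± 0.512 CPM in control, and LRRC8C had 10.2 ± 0.733, 11.1 ± 0.515 and 3.65 ± 0.0455 CPM. In control LRRC8D was therefore the highest of the 5 genes per kilobase, above LRRC8A at 11.2 ± 0.154 CPM. In both groups given TGF-β1 LRRC8A was the highest, at 17.5 ± 0.919 CPM with acetate and 14.1 ± 0.459 CPM without. Under acetate LRRC8E rose by 0.58 (SE 0.0735, adjusted p = 5.00e-06) and LRRC8B fell by −0.34 (SE 0.0610, adjusted p = 1.63e-04), both at 2.80 CPM per kilobase or less in every group. LRRC8D at 0.13 (SE 0.0432, adjusted p = 0.0188) and LRRC8C at −0.12 (SE 0.0501, adjusted p = 0.0463) passed the threshold for acetate only narrowly. The LRRC8D call was lost with DESeq2 and without S15, S16, S17, S18 or S23, and the LRRC8C call without S15, S18, S23 or S24, and the LRRC8C value changed sign with library totals (0.011, adjusted p = 0.874).

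**Figure D3:**
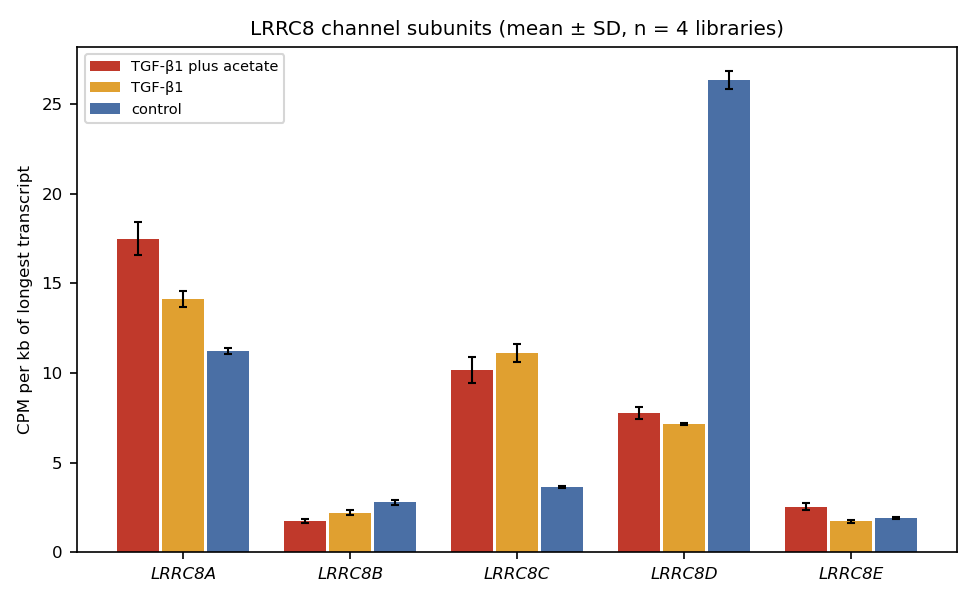
Level of the 5 LRRC8 channel subunit genes in CPM per kilobase of longest transcript (vertical axis from 0), as the mean ± SD of 4 libraries a group. LRRC8D towers over the others in control at 26.3, while LRRC8A is highest with TGF-β1 plus acetate at 17.5 and with TGF-β1 at 14.1.

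In the list of 12 other volume-regulated and swelling-linked channels, 11 were tested. With acetate 7 rose while 4 fell (median log2 fold change 0.53), and 2 fell in place of 4 with library totals. Under TGF-β1 against control 3 rose and 6 fell, with a median of −0.27. KCNN4, a calcium-activated potassium channel that takes part in volume decrease, rose with acetate by 2.25 (SE 0.0656, adjusted p = 3.31e-13) and averaged 65.8 ± 4.60 CPM with TGF-β1 plus acetate, 13.9 ± 1.35 CPM with TGF-β1 and 16.9 ± 1.45 CPM in control. CLCN3, an endosomal chloride-proton exchanger, rose by 0.53 (SE 0.0405, adjusted p = 1.66e-08), with 110.4 ± 2.13, 77.2 ± 3.92 and 103 ± 4.70 CPM in the same order.

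**Figure D4:**
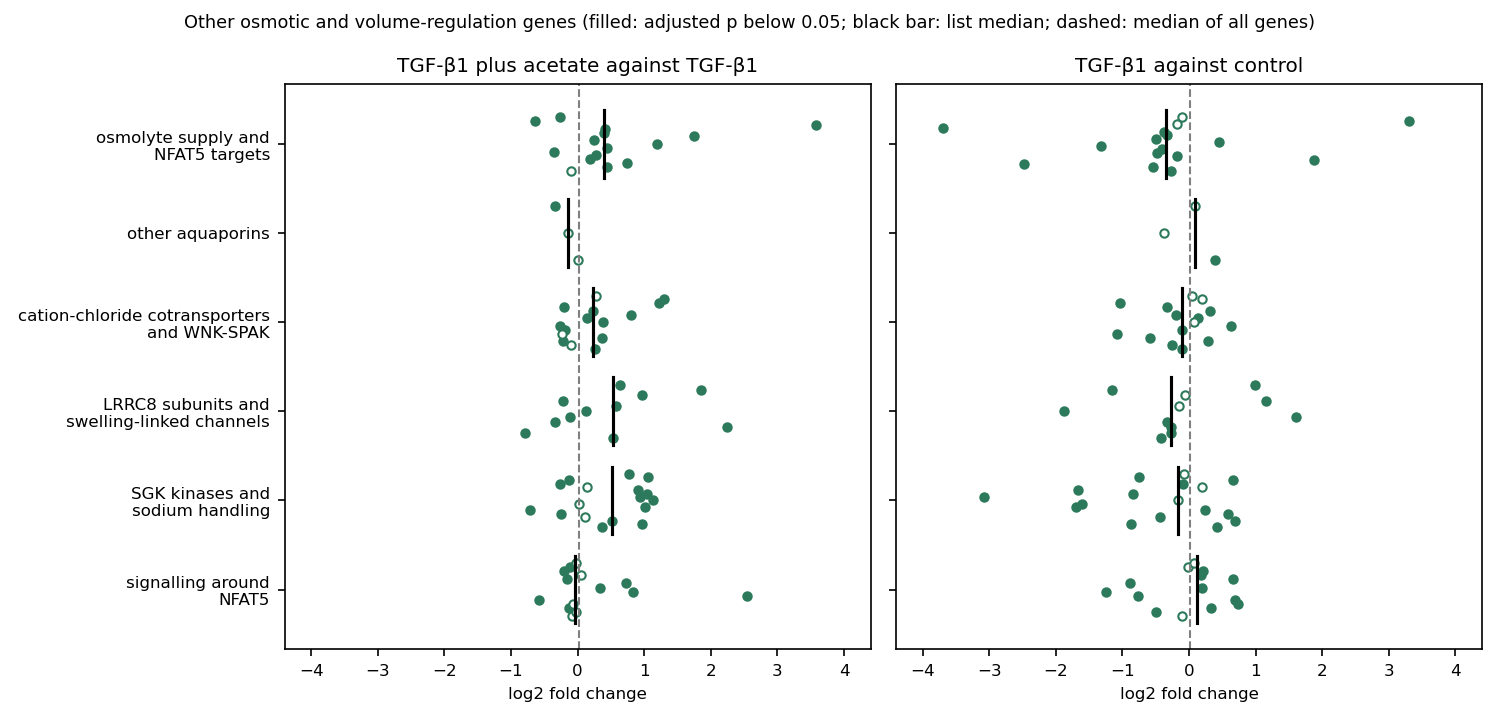
Log2 fold change (horizontal axis) of the tested genes in 6 lists of osmotic and volume-regulation genes other than the 10, for TGF-β1 plus acetate against TGF-β1 (left) and TGF-β1 against control (right), with filled dots for called genes, a black bar for the list median and a dashed line for the median of all genes. The medians of the channel and the sodium lists, 0.53 and 0.52, lie farthest to the right of the dashed line under acetate, and that of the osmolyte list, −0.35, farthest to the left under TGF-β1.

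Compared per kilobase of longest transcript, AKR1B1 was the most abundant of the 10 in every group, at 1128 ± 90.7 CPM with TGF-β1 plus acetate, 219 ± 4.04 CPM with TGF-β1 and 572 ± 28.9 CPM in control. With TGF-β1 plus acetate SLC6A6 at 18.5 ± 0.612 CPM, LRRC8A at 17.5 ± 0.919 CPM and WNK1 at 17.2 ± 1.88 CPM followed, 3 neighbours whose SDs overlap. SLC12A2 came next at 12.4 ± 0.441 CPM, then NFAT5 at 5.81 ± 0.988 CPM, SGK1 at 4.62 ± 0.109 CPM and SLC5A3 at 4.38 ± 0.109 CPM. In TGF-β1 cells the order after AKR1B1 was WNK1 at 15.2 ± 1.12 CPM, LRRC8A at 14.1 ± 0.459 CPM, SLC6A6 at 10.5 ± 0.152 CPM, SLC12A2 at 10.0 ± 0.0856 CPM, SGK1 at 6.41 ± 0.187 CPM, SLC5A3 at 4.10 ± 0.276 CPM and NFAT5 at 3.55 ± 0.415 CPM. WNK1 and LRRC8A differed there by less than their summed SDs, as did SLC5A3 and NFAT5. In control SLC12A2 took second place at 37.8 ± 1.78 CPM, ahead of WNK1 at 22.9 ± 2.35 CPM and SLC6A6 at 20.1 ± 0.514 CPM, and AQP1 came last. WNK1 and SLC6A6 differed in control by less than their summed SDs. All these orders rest on the longest annotated transcript, which need not be the form expressed.

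For each of 3 of the 10 genes, 3 others are named as those whose log2 CPM ran most closely with it over the 12 libraries, among 11087 genes with a mean of at least 10 CPM. The libraries fall into 3 groups, so a high Pearson r mostly reflects a like relative spacing of the group means, and it is given as a description. For AKR1B1 these were ETV1 (r = 0.998), PERP (0.998) and HPGD (0.996). HPGD, which breaks down prostaglandins, averaged 431 CPM with TGF-β1 plus acetate, 83.2 CPM with TGF-β1 and 198 CPM in control. For AQP1 they were ARNTL (r = 0.998), CORO6 (0.998) and P3H2 (0.997), and CORO6 averaged 33.6, 13.2 and 5.49 CPM in the same groups. For AQP3 they were ZNF319 (r = 0.995), ZFAND3 (0.992) and AMOTL2 (0.992), and AMOTL2 averaged 48.4, 30.4 and 129 CPM.

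Within groups, NFAT5 and WNK1 shared some of their extreme libraries. Both were highest in S22 and lowest in S24 among the acetate libraries, highest in S15 among the TGF-β1 libraries and highest in S2 among the control libraries. Their lowest libraries differed in the other groups, with S16 for NFAT5 and S17 for WNK1 under TGF-β1, and S3 for NFAT5 and S4 for WNK1 in control. These extremes were not particular to NFAT5 and WNK1. SLC5A3 and SLC12A2 were also highest in S2 and S15, and SLC6A6 was highest in S2 and S22 and lowest in S24. Against that, AKR1B1, AQP1 and SGK1 were lowest in S2 among the control libraries. AKR1B1 was highest in S24, the library in which NFAT5 and WNK1 were lowest.

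**Figure D5:**
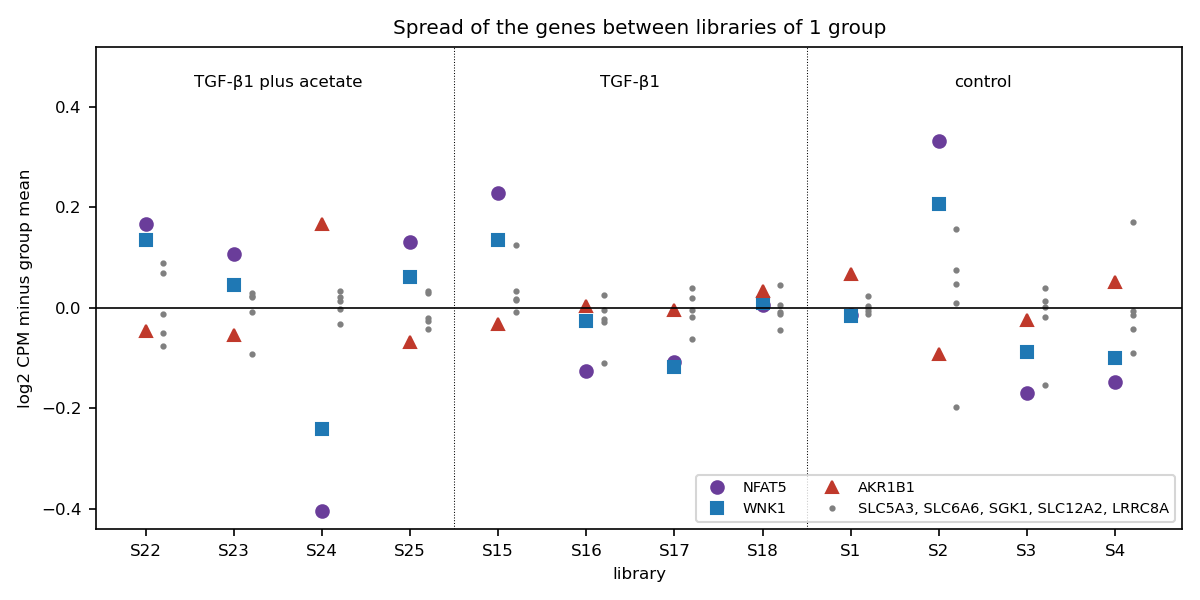
Deviation of log2 CPM from the group mean (vertical axis) in each library for NFAT5, WNK1 and AKR1B1, with 5 other genes as small dots; AQP1 and AQP3 are left out for their low counts. NFAT5 and WNK1 lie below 0 and AKR1B1 above it in the acetate library S24, and NFAT5 and WNK1 lie together above 0 in S15 and S2.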

How the data were processed

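Per the labels, total RNA was depleted of ribosomal RNA and read as paired 75 bp ends in stranded libraries. The submitters' processing notes name bcl2fastq, HISAT2, limma and hg38; which versions, counting tool and strand setting they used is not stated in those notes or the labels. The authors deposited 2 tables of raw counts per gene, with their own log2 fold changes, p-values and q-values, which were not used for results. A further 32 columns of per-library values were not used. The shared TGF-β1 columns held identical counts in all 23771 common genes, and pairs of libraries within groups differed by a chi-square per degree of freedom of 3.95 to 17.3, so none was a duplicate.

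The counts went into edgeR 4.0.16 (R 4.3.3), with filterByExpr at a minimum count of 10 and minimum total of 15, TMM factors, glmQLFit and the two-sided glmQLFTest. P-values were adjusted by Benjamini-Hochberg over all genes tested, at a threshold of 0.05. Acetate was compared with TGF-β1, and TGF-β1 with control, within the table holding both; TGF-β1 plus acetate was compared with control in a joint fit of all 12 libraries. Levels are CPM from that joint fit. The test was tried on simulated data, where unchanged genes made up 11% of its calls in the acetate comparison. They made up 7.54% for TGF-β1 against control and 5.32% for TGF-β1 plus acetate against control. Each share is above the threshold, but each comes from a single simulated draw. Far fewer genes were changed there than were called in the data, so these shares do not carry over to the results or rank the comparisons. Calls close to the threshold are not taken as firm. Transcript lengths and overlaps come from GENCODE release 29, promoter sequences from RefSeq (GRCh38.p14). All 10 genes are named, with the 2 smallest p-values of each list in each of the first 2 comparisons; HPGD, CORO6 and AMOTL2 were given levels after their values were seen. The genes and lists were chosen with earlier results of these data known. Alternatives were DESeq2 1.42.0, limma-voom (limma 3.58.1), other scalings, no filter, another set of libraries in the fit and leaving out each library.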

Additional observations from a re-analysis of the deposited data

Results flagged for a closer look

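Of 30 groups of 4 libraries (10 genes in 3 groups), 3 held a library far from the other 3, measured as its gap to the nearest library over the range of the group, where chance gives about 1 in 20. AKR1B1 with TGF-β1 plus acetate had a ratio of 0.913, with S24 highest at 2439 CPM and the next library at 2105 CPM. NFAT5 in the same group had a ratio of 0.873, with S24 lowest at 61.7 CPM and the next at 87.8 CPM. SLC12A2 with TGF-β1 had a ratio of 0.830, just over the critical value of 0.829, with S15 at 69.8 CPM and the next library at 68.7 CPM. Without S24 the acetate change of AKR1B1 was a log2 fold change of 2.32 and that of NFAT5 0.83.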

How the results depend on the processing

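Each log2 fold change of the 10 genes was recomputed under 14 alternatives a comparison, 8 of which leave out 1 library. None changed sign, and in 409 instances the call and direction stayed, in 9 the call was lost and in 2 it was gained; these concern WNK1, SLC5A3 and SLC6A6 as given beside their values. Counts of genes and of the 10 genes called stayed within 1.5 times the reported ones. Among listed genes LRRC8C turned to 0.011 with library totals and AQP6 ran from −0.32 to 0.11 over the libraries left out, positive without S24 (adjusted p = 0.796), both under acetate. Library totals moved the median of all genes to 0.157 (TMM 0.0261) under acetate, with 67.1% of calls higher in place of 52.3%, and to −0.0864 (TMM 0.0157) under TGF-β1, with 41.2% higher in place of 51.0%. The cause was not tested. LRRC8E, not called under TGF-β1 (−0.15, adjusted p = 0.0702), was called lower there with library totals (adjusted p = 0.00451) and without S1 or S2. AQP1 in control and AQP3 with TGF-β1 rest on few counts. No paired analysis was possible because the count columns carry no replicate numbers.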

Other observations

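The last of the 6 lists holds genes that sense tonicity or act on NFAT5. Of 14 tested, 4 rose and 5 fell with acetate (median log2 fold change −0.04), and 7 rose and 4 fell with TGF-β1 against control (median 0.13); with library totals 2 fell in place of 5 under acetate. HIF1A, the oxygen-sensing transcription factor subunit, rose with acetate by 0.83 (SE 0.0289, adjusted p = 2.03e-12) and fell with TGF-β1 by −1.24 (SE 0.0298, adjusted p = 1.48e-15), averaging 815 ± 13.7 CPM with TGF-β1 plus acetate, 462 ± 5.26 CPM with TGF-β1 and 1096 ± 9.17 CPM in control. FYN, a Src-family kinase, rose with acetate by 2.55 (SE 0.107, adjusted p = 1.72e-11), with 6.90 ± 0.431 CPM against 1.19 ± 0.116 CPM with TGF-β1 and 2.03 ± 0.174 CPM in control. MAP2K6, a kinase that activates p38, fell with TGF-β1 by −0.89 (SE 0.0448, adjusted p = 2.44e-11), with 27.7 ± 1.43, 16.8 ± 0.605 and 31.3 ± 0.995 CPM in the same order of groups.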
